A study of Mus musculus with 2 samples.

Results

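The mouse genes Kit, Kitl, Cdh1, Cdh2, Gja1, Gjc1, Gja4 and Tex14 are described here across the germ cells and somatic cells of the fetal ovary, in the presence and absence of the glucocorticoid receptor (GR). They encode the receptor KIT and its ligand, cadherins, connexins and a protein of germ cell bridges. They were chosen by symbol, and make up 8 of the 27998 genes counted. Each symbol occurred once, and no gene of the set was used to name a cell class or to build the clusters.

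KIT is a receptor tyrosine kinase on the surface of germ cells, and KIT ligand, the product of Kitl, is presented by neighbouring somatic cells in membrane-bound and shed forms. The pair is known for its part in the survival and migration of primordial germ cells and, later, in oocyte growth. Cadherins are calcium-dependent adhesion molecules that bind their own kind on the next cell and are held to actin by catenins: Cdh1 encodes E-cadherin and Cdh2 encodes N-cadherin. Connexins form gap junctions through which small molecules pass from cell to cell. Gja1 encodes the main connexin of granulosa cells, Gja4 a connexin of oocytes and of vascular endothelium, and Gjc1 a connexin of early embryonic, cardiac and smooth muscle cells. Tex14 encodes a protein that keeps the bridges between sister germ cells open after division, where it binds CEP55.

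Ovaries were taken at embryonic stage E15.5, when most female germ cells are in meiotic prophase. All embryos carried a Pou5f1-GFP transgene that marks germ cells (strain label Tg(Pou5f1-EGFP)2Mnn Nr3c1tm1.1Jda). Embryos of the GR deletion group (KO) were homozygous for a constitutive deletion made from a floxed Nr3c1 allele with an ACTB promoter-driven Cre, so that GR was lost in every tissue, and embryos of the wild-type group (WT) carried both intact alleles. No treatment is named for either group. Ovaries of 2 KO embryos and of 4 WT embryos were each pooled, and their mesonephroi removed. Sorted GFP-positive germ cells were then mixed with somatic cells at 60 to 40 and captured in droplets. Each genotype was therefore 1 library: there was no replicate, no test over samples was possible, and genotype cannot be told apart from which embryos were pooled, how they were sorted or which capture they went into.

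The KO library held 186117981 UMIs (unique molecular identifiers, each marking 1 captured transcript) and the WT library 168483330. After the study's limits on cells, 15502 KO and 9045 WT cells were kept, with medians of 10194.5 and 15685 UMIs. The libraries shared 75 cell barcodes, 27 of them among kept cells. Nr3c1 was lower in the KO library in all 8 classes, from 71.8 to 11.6 UMIs per 1000000 in germ-like cells (log2 ratio -2.63, 95% interval -2.71 to -2.55), although in the perivascular-like class the interval included 0 (log2 ratio -0.30, -1.71 to 1.20). Tags of a 3-prime assay lie outside the deleted exon, so these levels do not check the deletion itself.

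The cells were clustered anew and each class was named from marker genes. There were 10214 KO and 6805 WT germ-like cells, 2012 and 922 granulosa-like, 1885 and 816 theca-like (stroma), 1086 and 399 epithelia-like, 136 and 30 endothelia-like, 64 and 26 perivascular-like, 51 and 32 immune-like and 54 and 15 erythroid-like cells. No class had a marker of its own at 0. Of the germ stages named next, advanced prophase-like cells had 2 of their 8 markers at 0 in each library. Among germ-like cells, premeiotic-like (810 KO and 403 WT cells), Stra8-high-like (1085 and 310), recombination-initiating-like (5449 and 3771) and advanced prophase-like cells (16 and 76) were named. Germ cluster 0 (2730 and 2165 cells, led by Morn5) and germ cluster 8 (124 and 80 cells, led by Xist, Tmsb4x, Kitl and Fst) met no stage's rule. The stage names did not separate Stra8: its level was 1392 and 1414 CPM in premeiotic-like cells, above the 1213 and 1322 CPM of Stra8-high-like cells, and the summed Stra8-high markers stood in the same order (1745 and 1703 against 1528 and 1539 CPM). The summed premeiotic markers were higher in premeiotic-like cells (1594 and 1622 against 744 and 813 CPM), so that Stra8-high-like cells are those with high Stra8 and fewer premeiotic transcripts, and the order of stages used here is that of the names and was not measured.

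Levels are given as UMIs of the gene per 1000000 UMIs of the class (CPM), KO first and WT second. They are followed in places by a 95% interval that covers counting error only. Levels are compared between cells for 1 gene at a time and never between genes. Of the 8 genes, 5 had a promoter in the RefSeq table of GRCm38.p6, which holds 32851 promoters. The bases upstream of the start are shown for Kit, Kitl and Tex14, as the receptor, its ligand and the bridge gene of the set. Kit had 2 promoter entries, of which only the first is shown and searched. Capitals mark matches, on either strand, to any of 4 motifs. The E-box was searched as CANNTG. The GC box was searched as GGGCGG. A half-site of GR was searched as AGAACA. The TATA box was searched as TATAAA. No match of one motif overlapped another.
Kit, chr5:75574737-75574915, plus strand: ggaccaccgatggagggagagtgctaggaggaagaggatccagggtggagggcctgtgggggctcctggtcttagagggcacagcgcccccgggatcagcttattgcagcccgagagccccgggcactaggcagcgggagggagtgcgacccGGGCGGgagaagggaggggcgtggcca
Kitl, chr10:100015571-100015629, plus strand: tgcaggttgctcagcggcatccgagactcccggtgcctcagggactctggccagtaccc
Tex14, chr11:87404815-87405064, plus strand: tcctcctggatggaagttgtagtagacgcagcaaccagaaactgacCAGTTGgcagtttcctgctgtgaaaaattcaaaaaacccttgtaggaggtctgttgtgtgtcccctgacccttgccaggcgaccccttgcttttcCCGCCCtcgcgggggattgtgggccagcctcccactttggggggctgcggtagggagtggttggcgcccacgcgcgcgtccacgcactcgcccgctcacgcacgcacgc
The Kit window of 179 bases held 1 GC box, which 20.9% of all RefSeq windows of that length held. The Tex14 window of 250 bases held 1 E-box and 1 GC box, found in 66.2% and 32.7% of windows. The Kitl window of 59 bases held none of the 4 motifs. A match is a run of letters and not a bound site, and no match describes these windows only.

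Kitl (chromosome 10, 100015630 to 100100416, plus strand, GRCm38) was above all a transcript of granulosa-like cells. Its level there was 676 CPM in KO cells (664 to 688) and 691 CPM in WT cells (676 to 706). Epithelia-like cells followed with 324 and 257 CPM. The summed level of the 8 granulosa markers was 919 and 963 CPM in these cells, against 2448 and 2588 CPM in granulosa-like cells, and the part of granulosa RNA in their Kitl was not tested. The level of granulosa-like cells was thus 2.08-fold that of epithelia-like cells in the KO library and 2.68-fold in the WT library. Endothelia-like cells held 158 and 175 CPM, and theca-like cells 63.3 and 61.1 CPM. In both libraries the steps from granulosa-like to epithelia-like to endothelia-like cells exceeded counting error. The next classes, theca-like, erythroid-like, perivascular-like and immune-like, overlapped with their neighbours in the WT library. Nearly all granulosa-like cells carried the transcript: 97.1% of KO and 97.8% of WT cells had at least 1 Kitl UMI. Because WT cells were deeper, shares were also taken after each cell was thinned to 3000 UMIs, which gave 80.6% and 82.5% of granulosa-like cells, 52.7% and 42.4% of epithelia-like cells and 13.3% and 12.5% of theca-like cells. In germ-like cells the thinned shares were 1.96% and 1.46%, with median depths of 11325 and 17113 UMIs before thinning.

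Kitl also varied inside the somatic classes. Of the granulosa-like clusters, cluster 4, led by Gng13 and Fst, held 688 and 710 CPM (709.6 in the WT library). The small cluster 13, led by Gstm2 and Hsd17b11, held 143 and 191 CPM. The 10 leading genes of cluster 13, Pax8 among them, held 0 granulosa markers, against 2 in cluster 4. Whether cluster 13 is of another cell type was not tested. Among theca-like cells, cluster 5, led by matrix genes such as Mfap4, held 85.8 and 69.0 CPM. Cluster 9, led by matrix and cell division genes, held 36.2 and 40.4 CPM. Cluster 9 also held more Tex14 than cluster 5 in both libraries (levels given at the end). The part of germ RNA in the lower Kitl level of cluster 9 was not tested. The order of clusters inside each class was the same in both libraries.

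Germ-like cells held 7.89 and 6.18 CPM of Kitl, and most of that sat in 1 cluster. Germ cluster 8, whose leading genes included somatic ones, held 250 CPM in the KO library (250.4) and 188 CPM in the WT library. The other 9 germ clusters held between 2.37 and 6.80 CPM. Without germ cluster 8 the germ-like level was 4.22 and 3.34 CPM. Granulosa markers stood in germ-like cells at a median of 0.868% and 0.899% of their own level, a rate at which Kitl would be 5.87 and 6.21 CPM. The Kitl level of germ-like cells was below that median rate and could not be told apart from background.

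Kit (chromosome 5, 75574916 to 75656722, plus strand) was found at 10.4 CPM in KO germ-like cells (9.80 to 10.95) and 14.1 CPM in WT germ-like cells (13.4 to 14.7). That level was not the highest of the classes. Endothelia-like cells held 46.0 and 53.9 CPM, on 64 and 20 UMIs. In the KO library the highest level was that of immune-like cells, 92.5 CPM on 50 UMIs, against 20.5 CPM on 9 UMIs in the WT library. These UMIs came from 13.7% of the 51 KO and 6.25% of the 32 WT immune-like cells, and a single cell held up to 15 of them. Granulosa-like cells held 12.2 and 8.65 CPM, theca-like cells 6.72 and 5.46 CPM, and epithelia-like cells 3.04 and 2.86 CPM. After thinning, a Kit UMI was seen in 2.58% of KO and 3.91% of WT germ-like cells, 3.58% and 2.60% of granulosa-like cells, 15.4% and 23.3% of endothelia-like cells and 0.737% and 0.752% of epithelia-like cells.

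Within the germ line Kit was high in the first and last of the named stages and low between. Premeiotic-like cells, which still express Pou5f1 and Rhox genes, held 25.6 and 26.1 CPM. Stra8-high-like cells held 8.99 and 10.4 CPM, and recombination-initiating-like cells held 5.55 and 7.73 CPM. Advanced prophase-like cells, which express oocyte genes such as Lhx8, held 116 CPM in the KO library (70.8 to 179) and 78.0 CPM in the WT library (64.7 to 93.3). Relative to recombination-initiating-like cells the advanced cells were 20.9-fold higher in KO and 10.1-fold higher in WT cells, and the premeiotic-like cells 4.62-fold and 3.38-fold higher. In both libraries the order was advanced prophase-like, premeiotic-like, germ cluster 0, Stra8-high-like and recombination-initiating-like cells. At the clustering of resolution 0.5 each step exceeded counting error. The advanced values rest on 92 cells, and the KO value on 20 UMIs in 16 cells. At the finer clustering of resolution 1 the advanced prophase-like cells numbered 670 KO and 709 WT and held 25.9 and 33.9 CPM of Kit, 3.85-fold and 3.80-fold the recombination-initiating-like level, so the direction was kept and the fold was smaller. The log2 KO over WT ratio of Kit in advanced cells went from 0.57 to -0.39 with that change. The KO advanced level of 25.9 CPM was then near the 25.6 CPM of premeiotic-like cells at resolution 0.5. In the KO library the first step of that order thus depended on the clustering. After thinning, 25% of KO and 22.4% of WT advanced cells had a Kit UMI. Germ cluster 0 held 15.4 and 21.4 CPM, 2.77-fold the recombination-initiating-like level in either library.

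**Figure D1:**
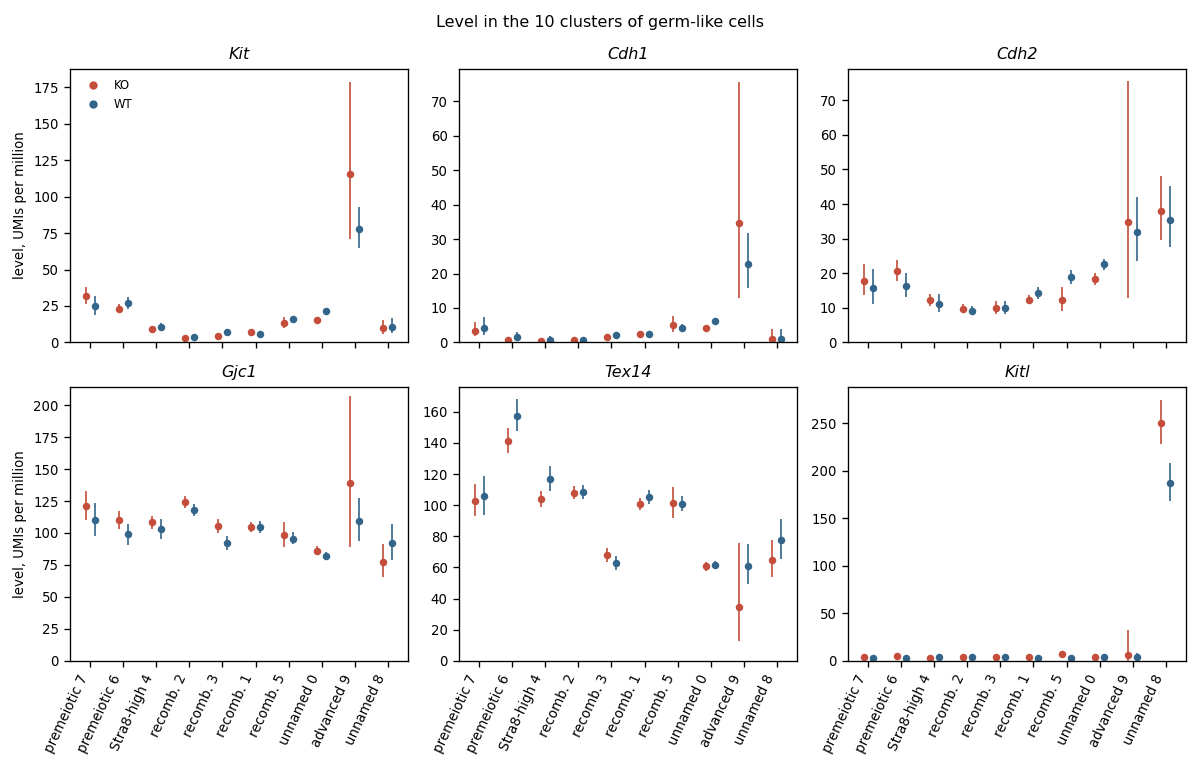
Level (CPM, vertical axes from 0) of 6 of the genes in the 10 clusters of germ-like cells, KO in red and WT in blue, with 95% Poisson intervals. Kit and Cdh1 peaked in the advanced prophase cluster, Tex14 peaked in premeiotic cluster 6 and Kitl stood out in unnamed cluster 8.

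Cdh1 (chromosome 8, 106603351 to 106670246, plus strand) was scarce, and germ-like cells held most of its UMIs, at 2.17 CPM in the KO library (1.92 to 2.45) and 3.58 CPM in the WT library (3.25 to 3.94). Germ-like cells were also 65.9% and 75.2% of the kept cells. Epithelia-like cells held 1.41 and 1.36 CPM on 19 and 10 UMIs. The small erythroid-like class (54 and 15 cells) held 0 and 8.13 CPM. Immune-like cells (51 and 32) held 1.85 and 2.28 CPM. Granulosa-like cells had 9 KO UMIs and 1 WT UMI, and theca-like cells 5 and 2. No UMI was counted in endothelia-like cells, which allows up to 2.15 CPM in the KO library and 8.09 CPM in the WT library (3 UMIs of the class total). Among the named stages Cdh1 was lowest in Stra8-high-like cells, with 0.422 and 0.832 CPM. It was 1.86 and 2.31 CPM in recombination-initiating-like cells and 4.20 and 6.17 CPM in germ cluster 0. Advanced prophase-like cells held 34.8 CPM on 6 KO UMIs and 22.8 CPM on 35 WT UMIs, 18.6-fold and 9.86-fold the recombination-initiating-like level. The limits of the KO value were wide (12.8 to 75.7 CPM). With the larger advanced class of resolution 1 the levels were 8.09 and 11.6 CPM, 4.93-fold and 4.85-fold the recombination-initiating-like level, and the log2 KO over WT ratio went from 0.61 to -0.52.

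Cdh2 (chromosome 18, 16588877 to 16809246, minus strand) was mainly somatic. Epithelia-like cells held 66.5 and 56.8 CPM, granulosa-like cells 60.8 and 59.4 CPM, and perivascular-like cells 53.8 and 34.2 CPM on 32 and 11 UMIs. Granulosa-like and epithelia-like levels did not differ beyond counting error in the WT library. Theca-like cells held 13.97 and 12.8 CPM, so that granulosa-like cells were 4.35-fold and 4.64-fold higher. Germ-like cells held 14 and 16.5 CPM. Among germ stages at resolution 0.5, Cdh2 followed the shape of Kit more shallowly. It held 19.8 and 16.1 CPM in premeiotic-like cells and 10.9 and 13.1 CPM in recombination-initiating-like cells. Advanced prophase-like cells held 34.8 and 31.9 CPM, the KO value from 16 cells. At resolution 1 the advanced levels were 18.75 and 27.65 CPM, 1.63-fold and 1.98-fold the recombination-initiating-like level. The KO advanced level was then not above the premeiotic-like 19.8 CPM of resolution 0.5. Over the 9 germ clusters other than cluster 8, the correlation of the Kit and Cdh2 levels was 0.957 in the KO and 0.883 in the WT library. That of Kit and Cdh1 was 0.778 and 0.818. These correlations are descriptions: clusters of 1 library share a capture, and the advanced cluster lies far from the rest.

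Gja1 (chromosome 10, 56377330 to 56402513, plus strand) marked the somatic side. Epithelia-like cells held 86.2 and 85.0 CPM and granulosa-like cells 75.6 and 86.8 CPM, a pair that did not differ beyond counting error in the WT library. Endothelia-like cells held 59.6 and 56.6 CPM and theca-like cells 40.2 and 53.4 CPM. Germ-like cells held 1.11 and 0.901 CPM, and 0.716 and 0.462 CPM without germ cluster 8, beside the 0.656 and 0.781 CPM that the rate of granulosa markers in germ-like cells would give. That rate is a median over 8 markers that stood between 0.317% and 7.56% in the KO library and between 0.331% and 8.19% in the WT library, so Gja1 in germ-like cells could not be told apart from background. Finer clustering split granulosa-like cells, and a split of interest was chosen after its values were seen. Fine cluster 14, with Akr1cl among its leading genes, held 135 and 157 CPM of Gja1 (135.2 and 156.5), and the larger fine cluster 1 held 68.6 and 75.6 CPM. The same fine clusters held like levels of Kitl, 652 and 729 CPM in cluster 14 and 696 and 709 CPM in cluster 1.

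Gjc1 (chromosome 11, 102799579 to 102819700, minus strand) was the connexin of the set seen on both sides of the germ and somatic divide. Perivascular-like cells held 187 and 137 CPM on 111 and 44 UMIs. Germ-like cells held 105 and 97.4 CPM (105.2 and 97.35), and theca-like cells 96.4 and 90.03 CPM. Epithelia-like cells held 66.9 and 63.1 CPM, and granulosa-like cells were lower, with 35.7 and 28.6 CPM. Across the named germ stages Gjc1 moved little, between 108 and 139 CPM in KO cells and between 102 and 109 CPM in WT cells, and neighbouring stages overlapped. Germ cluster 0 was lower, with 86.2 and 81.8 CPM. Thinned shares were 26.5% and 24.8% of germ-like cells, 23.7% and 22.1% of theca-like cells and 9.64% and 6.94% of granulosa-like cells.

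Gja4 (chromosome 4, 127311421 to 127314039, minus strand) belonged to the vessels. Endothelia-like cells held 71.1 CPM (57.8 to 86.5) and 80.9 CPM (54.6 to 116), and perivascular-like cells 33.6 and 24.8 CPM on 20 and 8 UMIs. The endothelia-like level was 23.7-fold and 23.1-fold that of granulosa-like cells, which held 2.99 and 3.51 CPM. The Gja4 UMIs were concentrated: they came from 19.9% of the 136 endothelia-like cells in the KO library and 10% of the 30 in the WT library, and a single cell held 20 in the KO library and 13 in the WT library. Germ-like cells held 0.205 and 0.207 CPM, on 25 UMIs in each library. Advanced prophase-like cells had 0 KO UMIs, which allows up to 17.4 CPM, and 4 WT UMIs, or 2.60 CPM (0.708 to 6.66).

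Tex14 (chromosome 11, 87405065 to 87555823, plus strand) was the germ line gene of the set, with 92.7 CPM in KO germ-like cells (91.0 to 94.4) and 90.8 CPM in WT germ-like cells (89.1 to 92.5). It was lower in each later-named stage. Premeiotic-like cells held 130.0 and 142 CPM, Stra8-high-like cells 104 and 117 CPM, and recombination-initiating-like cells 96.7 and 97.6 CPM, each step larger than counting error in both libraries. Germ cluster 0 held 60.7 and 61.7 CPM and advanced prophase-like cells 34.8 and 61.1 CPM. The advanced level was 0.36 of the recombination-initiating-like level in KO cells (on 6 UMIs) and 0.626 in WT cells. At resolution 1 these shares were 0.495 and 0.698. Of the premeiotic-like clusters, cluster 6, led by replication histones, held 141 and 158 CPM, and cluster 7, led by Phlda2 and Tchh, held 103 and 106 CPM. Tex14 thus moved opposite to Kit and Cdh1 in the last named stage.

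**Figure D2:**
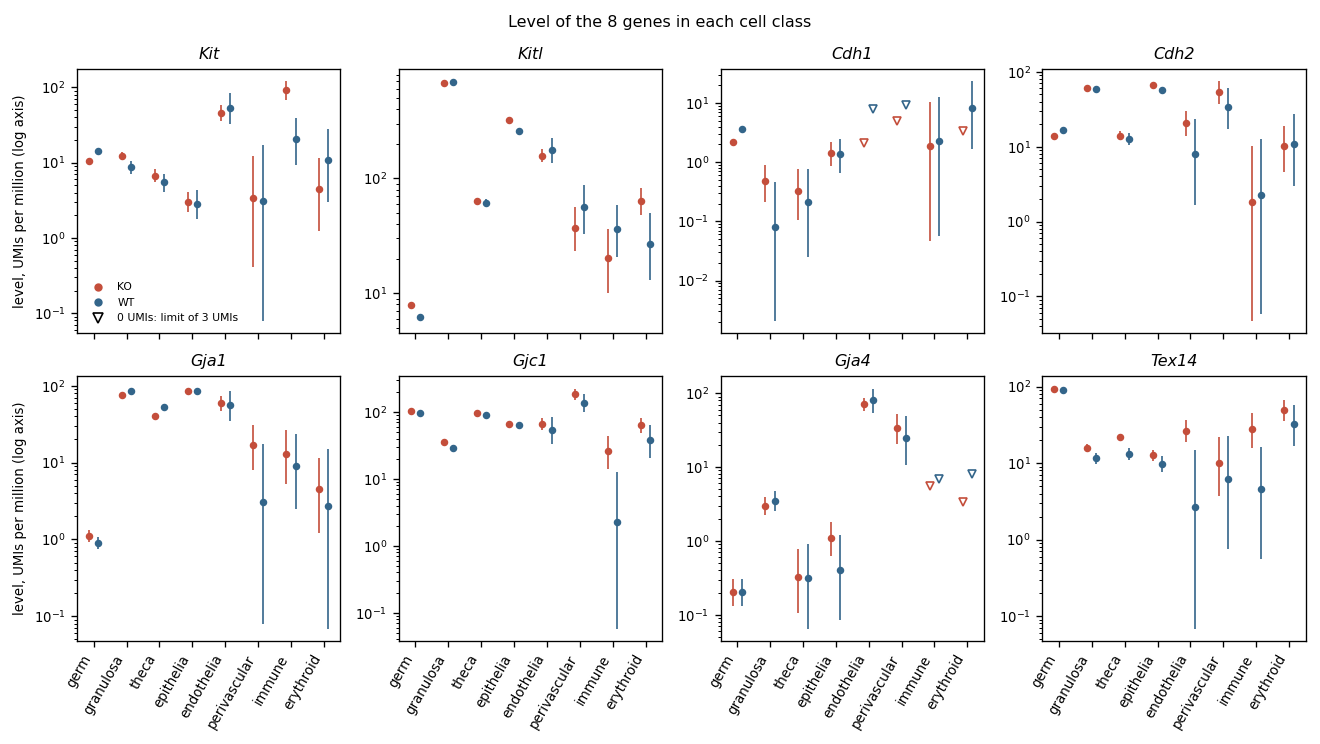
Level (CPM, log axes) of the 8 genes in the 8 cell classes, KO in red and WT in blue, with 95% Poisson intervals. Open triangles stand for 0 UMIs and mark the level that 3 UMIs would give. Kitl was highest in granulosa-like cells, Gja4 in endothelia-like cells and Tex14 in germ-like cells.

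Somatic classes held Tex14 too, at 15.8 and 11.5 CPM in granulosa-like, 21.6 and 13.2 CPM in theca-like and 12.6 and 9.67 CPM in epithelia-like cells. These levels stood beside germ transcripts in general. The 8 germ markers, which include Ddx4 and Dazl, lay in granulosa-like cells at a median of 16.1% and 9.99% of their germ-like level, and Tex14 at 17.0% and 12.7%. In theca-like cells the markers stood at 23.0% and 15.48%, and Tex14 at 23.2% and 14.5%. In epithelia-like cells they stood at 12.0% and 9.79%, and Tex14 at 13.5% and 10.6%. Endothelia-like cells had 22.9% and 2.08% of the markers' level and 28.5% and 2.96% of that of Tex14. A small part of the cells carried most of this RNA: the 10% of granulosa-like cells with the most germ marker UMIs held 81.4% of all such UMIs of the class in the KO library and 84.8% in the WT library. When cells called doublets by Scrublet were left out, Tex14 in granulosa-like cells was 6.72 and 8.15 CPM, or 7.23% and 8.96% of its germ-like level, beside markers at 3.88% and 5.52%. Without cells holding markers of other classes it was 6.06% and 5.03%, beside 2.34% and 1.81%. Tex14 in granulosa-like cells thus stood near the marker rate over all cells and above it once cells rich in germ RNA were left out, so whether these cells express it was not resolved.

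Gjc1 and Kit were not at that rate everywhere. Gjc1 in theca-like cells stood at 91.3% and 92.4% of its germ-like level, and 72.1 and 75.0 CPM remained once the marker rate was taken off (74.95 in the WT library). In granulosa-like cells Gjc1 stood at 33.8% and 29.3%, and 18.7 and 18.8 CPM remained. Kit in granulosa-like cells stood at 118% and 61.3% of the germ-like level (117.5 in the KO library), with 10.5 and 7.24 CPM above the marker rate. These 3 levels were above what the median marker rate and the average germ-like level give. Kit differed between germ stages, as given above, and the source of these somatic UMIs was not tested.

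**Figure D3:**
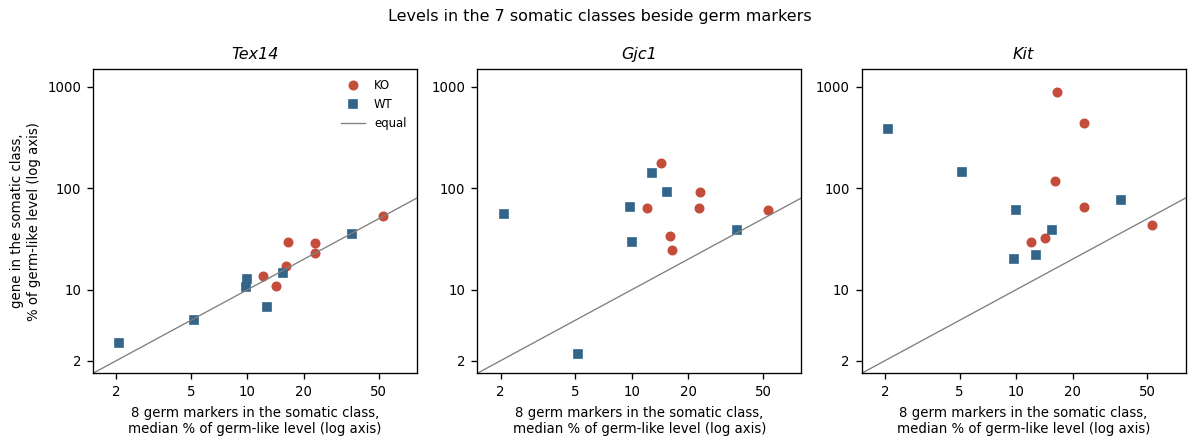
Level of Tex14, Gjc1 and Kit in each of the 7 somatic classes as a percentage of the germ-like level (vertical, log axis) against the median percentage of 8 germ markers in the same class (horizontal, log axis), KO as red circles and WT as blue squares. Tex14 lay near the line of equal percentages, while most points of Gjc1 and Kit lay above it.

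The libraries were then set side by side class by class, which bears on whether loss of GR alters these genes. Genes with at least 100 UMIs over both libraries were compared, by the study's size limit of 0.25 in ln(CP10k + 1), CP10k being counts per 10000 UMIs and ln the natural log. None of the 8 genes passed that limit in any main class. In germ-like cells 0 of 7 genes of the set passed, beside 0.174% of the 13818 genes compared. In granulosa-like cells 0 of 7 passed, beside 0.299% of 11041 genes. In theca-like cells 0 of 6 passed, beside 0.377% of 10617, and in epithelia-like cells 0 of 5, beside 0.250% of 10014. That measure understates change in genes at low levels, and shares this small leave little to read from a count of 0. By a limit of 0.5 on the absolute log2 ratio, 1 of 7 genes passed in germ-like cells (Cdh1) beside 7.81% of all genes, and 0 of 7 in granulosa-like cells beside 6.60%. In theca-like cells 1 of 6 passed (Tex14) beside 6.91%, and in epithelia-like cells 0 of 5 beside 4.02%. The median log2 ratio of the set was 0.03 in germ-like cells, where that of all genes was -0.05, and 0.03 against -0.02 in granulosa-like, 0.11 against 0.01 in theca-like and 0.23 against 0.03 in epithelia-like cells.

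In germ cells Kit and the cadherins were lower in the KO library, by ratios given here with counting intervals. Kit had a log2 KO over WT ratio of -0.44 (-0.54 to -0.33), Cdh1 of -0.72 (-0.95 to -0.50) and Cdh2 of -0.24 (-0.33 to -0.14). The connexin Gjc1 was 0.11 higher (0.08 to 0.15), and Tex14 differed by 0.03 (-0.01 to 0.07), within counting error. The germ clusters were not represented alike in the libraries, and the advanced prophase-like cells, rich in Kit and Cdh1, made up 16 of 10214 KO and 76 of 6805 WT germ-like cells (670 of 10218 and 709 of 6807 at resolution 1). With each of the 9 germ clusters given its share of the UMIs of both libraries as a common weight, an alternative added after the data were seen, the ratio of Kit was -0.21, of Cdh1 -0.24 and of Cdh2 -0.15. Kit was then lower in the KO library in 6 of 9 clusters, Cdh1 in 5 and Cdh2 in 4. The premeiotic-like cells had nearly the same Kit level in both libraries (log2 ratio -0.03), and recombination-initiating-like cells a lower one in the KO library (-0.48, -0.68 to -0.28).

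In granulosa-like cells the Kitl levels differed by less than counting error (log2 ratio -0.03, -0.07 to 0.01). Kit was higher in the KO library (0.49, 0.16 to 0.84), on 232 and 106 UMIs. Gja1 was lower (-0.20, -0.32 to -0.08), and the ratio was -0.10 without doublets called by Scrublet. Gjc1 (0.32, 0.13 to 0.51) and Tex14 (0.46, 0.17 to 0.76) were higher, and germ markers were higher in the same cells of the KO library, as given above. Less the marker rate, the Gjc1 levels of the libraries were 18.7 and 18.8 CPM. Without doublets called by Scrublet the Tex14 ratio turned to -0.28. Kit kept a positive ratio in all 8 alternatives, between 0.44 and 0.82.

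Epithelia-like cells held more Kitl in the KO library (log2 ratio 0.33, 0.26 to 0.41), with 4382 and 1890 UMIs, and Kitl was thus 126% of its WT level there, while Gja1 differed by 0.02 (-0.13 to 0.17). In these cells Cdh2 had a ratio of 0.23 (0.06 to 0.40). Theca-like cells held less Gja1 in the KO library (-0.41, -0.58 to -0.24), and Kitl differed by 0.05 (-0.10 to 0.20). Tex14 was 0.71 higher there (0.41 to 1.02), beside germ markers at 23.0% of the germ-like level in the KO and 15.48% in the WT library. Left without Scrublet doublets, the ratio was 0.34. The theca-like clusters went in opposite directions: Tex14 was higher in the KO library in cluster 9 and lower in cluster 5 (levels given at the end). Gja1 was lower in the KO library in both clusters, with the larger gap in cluster 9. After thinning, the Gja1 ratio of theca-like cells was -0.15. None of these differences has a replicate check.

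**Figure D4:**
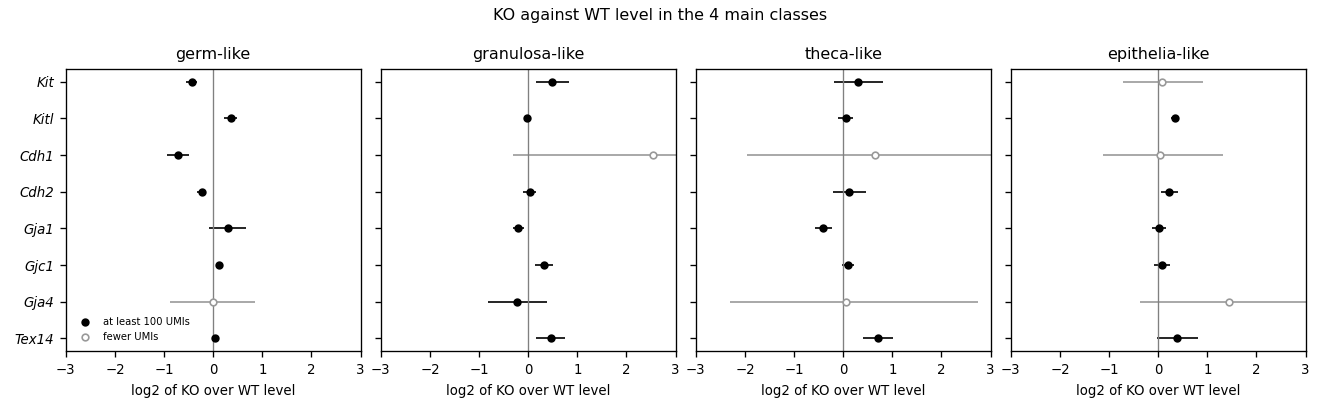
Log2 ratio of the KO over the WT level (horizontal axis) of the 8 genes in the 4 main classes, with 95% counting intervals, filled where at least 100 UMIs were counted over both libraries. The axis runs from -3 to 3, so the widest intervals of genes with fewer UMIs are cut off. Kit lay below 0 in germ-like and above 0 in granulosa-like cells.

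Wider lists of pathway genes were counted beside the set. Of 49 genes of KIT signalling (adaptors, RAS and PI3 kinase enzymes, phosphatases and their targets), 43 to 48 had enough UMIs in a main class, and none passed the limit of 0.25 in any of the 4 classes. The same was true of 31 further cadherin adhesion genes, 22 further gap junction genes and 15 bridge and midbody genes. The shares of all genes past 0.5 in log2, given above, were 7.81% for the germ-like class, 6.60% for granulosa-like cells, 6.91% for theca-like cells and 4.02% for the epithelia-like class. By that limit, 0 of 48 KIT signalling genes passed in germ-like cells, where Nras, a RAS GTPase, came closest (21.9 and 28.7 CPM, -0.39). The PI3 kinase subunit Pik3cb passed in granulosa-like cells (5.10 and 3.43 CPM, 0.57, 0.04 to 1.13) and in theca-like cells (5.27 and 2.52 CPM, 1.07, 0.39 to 1.79). The adaptor Dok1 passed in theca-like cells (8.24 and 12.7 CPM, -0.62). In epithelia-like cells none of 43 passed, and Jak2, a kinase of cytokine receptors, had the largest ratio (0.31).

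Cadherin genes were the only list of the 4 with any gene past 0.5 in germ-like cells, 4 of 18, all lower in the KO library. Over all genes compared there, 335 were past it on the higher side and 744 on the lower side. The actin linker Ctnna1 (alpha-E-catenin) held 33.5 and 54.1 CPM (-0.69, -0.75 to -0.64). The cadherins Cdh3 (2.48 and 4.00 CPM, -0.69), Cdh7 (0.656 and 1.09 CPM, -0.73) and Cdh26 (0.123 and 1.15 CPM, -3.22) were at low levels. The median log2 ratio of the list was -0.21, against -0.05 over all genes. These germ-like ratios pool germ clusters that were not represented alike in the libraries. The common cluster weights that took Cdh1 from -0.72 to -0.24 were not applied to genes of the lists. In granulosa-like cells 1 of 13 passed, Cdh12 (2.73 and 12.97 CPM, -2.25, -2.73 to -1.79). In theca-like cells 1 of 12 passed, the nectin Pvrl1 (3.56 and 5.14 CPM, -0.53), with an interval that included 0. In epithelia-like cells none of 11 passed, and Cdh11 was the farthest (29.0 and 37.1 CPM, -0.35).

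Gap junction genes passed in no class by either limit, of 6, 3, 4 and 5 compared in the germ-like, granulosa-like, theca-like and, last, the epithelia-like class. The largest ratios in the first 3 of these classes were those of Panx2 in germ-like cells (-0.45), the scaffold gene Tjp1 in granulosa-like cells (-0.16) and Panx1 in theca-like cells (-0.41). Of the bridge and midbody genes, none of 15 passed 0.5 in germ-like cells, where the kinase gene Cit was the farthest (24.2 and 30.4 CPM, -0.33). In granulosa-like cells 3 of 12 were higher, where 434 of the 11041 genes compared were past 0.5 on the higher side: Anln (7.46 and 3.84 CPM, 0.96), Prc1 (11.4 and 7.34 CPM, 0.63) and Rbm44 (5.46 and 3.67 CPM, 0.57). Anln and Prc1 act in cytokinesis, and Rbm44 encodes a protein of germ cell bridges. Rbm44 also passed in theca-like cells (7.65 and 5.35 CPM, 0.51). Germ markers were higher in the KO library in all 7 somatic classes, and their part in these values was not tested. In epithelia-like cells none of 14 passed, and Cep55 was the farthest (-0.32).

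For each gene of the set, up to 3 genes with the most similar pattern are given, found by the correlation of log2(CPM + 1) over 8 points of the WT library, namely the 4 main classes and the 4 named germ stages, which lie inside the germ-like class. For Kitl these were Wnt6 (r = 0.993), Amhr2 (0.988) and Kif5b (0.988), of which Wnt6 and Amhr2 are also markers that named the granulosa-like class. For Kit they were Fbxo6 (0.991), Mfsd5 (0.979) and Kpna6 (0.972). The KO library gave 0.898 and 0.942 for Fbxo6 and Kpna6, but -0.61 for Mfsd5. For Cdh1 they were Agap1 (0.987), Pkp4 (0.987) and Rpap3 (0.981), and for Cdh2 Prkcd (0.971), Grhpr (0.964) and Itga6 (0.961). For Gja1 they were Adamts19 (0.998), Nnat (0.998) and Sox5 (0.997). For Gjc1 they were Ckap2l (0.993), Ndc80 (0.983) and Smc2 (0.982). For Tex14 they were Zfp622 (0.999), Rhox7b (0.996) and Sfmbt1 (0.996). For Gja4, which reached only 3.51 CPM at these points, Fbxo46 (0.930) and Aagab (0.910) are given, with 0.764 and 0.595 in the KO library.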

How the data were processed

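The authors deposited raw UMI counts, 1 matrix per library, from a 3-prime droplet kit, and the file headers name Cell Ranger 3.0.2. The submitters' processing notes name the build mm10 and Seurat 3.2.3. Annotation and cell calling settings are not given in the sources used here. The members and lists were chosen with earlier results of these data known.

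Cells were kept between the study's limits: over 1500 and under 6500 genes, over 5500 and under 40000 UMIs (WT), or over 1200 and under 5500 genes, over 3000 and under 30000 UMIs (KO), with under 10% mitochondrial UMIs. Doublets were called (Scrublet, 1023 KO and 235 WT cells) but removed only in an alternative. Counts were scaled to 10000 per cell, restricted to 2000 variable genes without the members, reduced to 30 components (15 for germ-like cells) and clustered with 20 neighbours at resolution 0.5 (scanpy 1.11.5, leidenalg 0.10.2, seed 1). Every class rests on these rebuilt names, so values may differ from the study's. A class needed at least 3 markers detected in 10% of its cells, at over 2 times their level in cells first given another name. For a germ stage the factor was 1.5. The 10 leading genes of a cluster could not hold more markers of other classes (for stages, of somatic classes) than of its own.

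UMIs were summed per class and library. Levels carry exact Poisson intervals, ratios exact conditional binomial intervals and shares exact Clopper-Pearson ones (scipy 1.17.1), at 95%, for counting error only. With 1 library per genotype no p-value was computed. Named besides the members were the 3 genes most like each one (at least 1000 UMIs and a largest CPM within 4-fold) and, per list and class, the genes past a size limit and the largest ratio among genes with 100 UMIs. A few genes that this rule names are not reported here. Alternatives were common limits on cells, doublet removal, removal of cells holding other classes' markers, other scaling, means over cells, thinning, resolution 1, and members among the variable genes, plus both germ cluster settings added later. The size limits and ratio intervals were tested on simulated counts with known changes and counting error only.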

Additional observations from a re-analysis of the deposited data

Results flagged for a closer look

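Kit moved in opposite directions in 2 classes of the same libraries. Its log2 KO over WT ratio was 0.49 in granulosa-like cells (12.2 and 8.65 CPM) and -0.44 in germ-like cells (10.4 and 14.1 CPM), and neither counting interval included 0. Germ markers were higher in the KO granulosa-like cells (16.1% and 9.99% of their germ-like level), which at that rate would carry 1.67 and 1.41 CPM of germ cell Kit. With 1 library per genotype the difference between the classes was not tested.

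Cdh2 did the same in epithelia-like cells, with a ratio of 0.23 (66.5 and 56.8 CPM), against -0.24 in germ-like cells (14 and 16.5 CPM). Among the 9 germ clusters other than cluster 8, Cdh2 was lower in the KO library in 4 and higher in 5. The germ ratio was -0.15 with these clusters at common weights. The difference between the classes was not tested either.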

How the results depend on the processing

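The count of genes past 0.25 in ln(CP10k + 1) depended on the setting. In germ-like cells it was 24 of all genes, and 1079 by the log2 limit. In granulosa-like cells it was 33, and 89 with common limits on cells, 18 without Scrublet doublets, 19 once barcodes with markers of other classes were dropped, 52 with scaling that left out mitochondrial, ribosomal and haemoglobin genes, and 729 by the log2 limit. In theca-like cells it was 40, and under the same settings 192, 15, 14, 61 and 734, with 21 for means over cells and 23 from thinned counts. For epithelia-like cells the count was 25, and 73 with common limits, 295 once barcodes with markers of other classes were dropped (106 KO and 7 WT cells remained) and 403 by the log2 limit. Among the 8 genes, the count was 0 in each class, and 1 in germ-like and in theca-like cells by the log2 limit and 1 in epithelia-like cells once those barcodes were dropped.

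Ratios stayed within their first counting interval in 87 of 87 cases for means over cells and for the other scaling, 86 of 87 with the 8 genes among the variable genes, 76 of 87 with common limits, 79 of 86 without doublets, 60 of 68 without those barcodes, 76 of 80 at resolution 1 and 47 of 70 after thinning. Among ratios whose interval excluded 0, those that changed sign were Tex14 in premeiotic-like cells (from -0.12 to 0.0008 with common limits), in Stra8-high-like cells (from -0.17 to 0.06 at resolution 1) and in granulosa-like cells (from 0.46 to -0.28 without doublets), Cdh2 in epithelia-like cells (from 0.23 to -0.58 with 7 WT cells), and, after thinning, Gjc1 in immune-like cells (from 3.51 to -0.67) and Kitl in erythroid-like cells (from 1.24 to -0.53). The cause was not tested. Over all alternatives Kitl in epithelia-like cells ranged from 0.23 to 1.55, Gja1 in theca-like cells from -0.47 to -0.15 and Kit in germ-like cells from -0.62 to -0.21. No paired analysis was possible because each genotype had 1 library. Depth limited Cdh1 and Gja4 in somatic classes, where most levels rest on under 20 UMIs.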

Other observations

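Kit and Kitl UMIs often met in the same granulosa-like cell barcode. After thinning, 66 of the 72 Kit-positive KO granulosa-like cells also had Kitl (91.7%, against 80.2% of Kit-negative cells). In the WT library 17 of 24 did (70.8%, against 82.9%), so the libraries went in opposite directions on few cells.

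Erythroid-like cells, 54 in the KO and 15 in the WT library, held germ markers at 53.0% and 36.2% of the germ-like level and Tex14 at 52.9% and 35.8%. Of the theca-like clusters, the cluster with cell division genes (cluster 9) held 30.4 and 51.4 CPM of Gja1 and 40.3 and 23.8 CPM of Tex14, and cluster 5 held 48.3 and 54.2 CPM of Gja1 and 6.15 and 9.15 CPM of Tex14. Germ cluster 8 held 27.0 and 29.0 CPM of Gja1 beside 64.95 and 77.4 CPM of Tex14, so its barcodes carried somatic and germ transcripts together.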
